A study of Drosophila melanogaster with 3 samples.

Results

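Sex in the fly soma is set by a chain of splicing decisions, and dosage compensation is the branch of that chain that adjusts the X chromosome. The 10 genes described here form its core: Sxl, tra, tra2, dsx, fru, ix, msl-2, mle, and the noncoding RNA genes lncRNA:roX1 and lncRNA:roX2 (called roX1 and roX2). They were chosen by name and matched to the FlyBase gene IDs of the deposited values, and all 10 of 10 had a value, out of 11922 genes in all. RNA had been sequenced from AKHR+ neurons, brain cells that carry the receptor of the hunger hormone adipokinetic hormone. The samples formed 1 group of 3, here termed cells 1, 2 and 3 by replicate number, and other cells of the study were not analysed here. Each came from flies that carried nSyb-AD-AKHR-BD-GAL4;UAS-mCD8gfp, aged 5 days and kept on normal food. In these flies a membrane-bound GFP marked cells in which both the neuronal nSyb promoter and the AKHR promoter were active, and the marked cells were drawn from dissected brains with a glass pipette. The study's methods describe single cells that were picked one by one, whereas a label speaks of cells that were pooled, so a sample may be 1 cell or several. The labels do not give the sex of the flies. The study's methods used virgin females unless stated otherwise, and its account of the single-cell work names no sex.

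Sex-lethal (Sxl) is an RNA-binding protein made in full length in females, where 2 X chromosomes are present. It directs the splicing of tra RNA so that a working Transformer protein is made, and Transformer together with tra2 directs the splicing of dsx and fru, which encode sex-specific transcription factors. Sxl also blocks translation of msl-2 mRNA in females. In males the msl-2 protein is made and assembles with mle, an RNA helicase, with other proteins and with the roX RNAs into the MSL complex, which coats the male X chromosome and raises its transcription. The roX RNAs are therefore used as markers of male cells in the adult fly brain, whereas the mRNAs of Sxl, tra, tra2, dsx, msl-2 and mle are present in both sexes.

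The values were FPKM (fragments per kilobase of exon, scaled to the mapped fragments of the sample), which allow genes to be compared within a cell. Genes at FPKM of at least 1 count as detected. Among all genes, 36.8%, 50.7% and 47.2% were detected in cells 1, 2 and 3, so cell 1 stood apart by its fewer genes. A listed 0 was not proof of absence: of 74 genes for cytosolic ribosomal proteins, which every cell uses, 5, 4 and 3 were listed at 0. The estimated depth was 6630000, 6230000 and 6530000 fragments. Of the 4 markers of the labelled cells, AkhR had an FPKM of 14.7, 1.90 and 2.52 and the monoamine transporter gene Vmat of 154, 71.2 and 95.4. The octopamine synthesis genes Tdc2 (0, 13.3 and 8.58) and Tbh (0, 7.34 and 12.6) were both listed at 0 in cell 1, the cell with the highest AkhR. All 4 neuronal markers analysed were detected in every cell. Markers of other tissues were present too. All 6 photoreceptor markers and 4 of 6 fat body markers (Yp1, Yp2, Yp3 and Lsp2, while Fbp1 and Fbp2 were listed at 0 throughout) were detected in every cell, as were 4 of 5 glial markers, and the fifth, moody, was detected in cells 1 and 2 (the neuronal marker nSyb was not analysed here). The median FPKM of the neuronal markers was 66.4, 170 and 112 in cells 1, 2 and 3, and that of the glial markers 21.3, 130 and 127. The photoreceptor markers had a median of 421, 699 and 146, and the fat body markers of 2176, 2583 and 3754. Both of these medians lay above the neuronal one in every cell. The part these other tissues play in the values below was not tested. No sample was a copy of another, since 0 pairs of cells shared an identical value above 0. That does not show that the samples came from separate cells or flies.

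RNA of the hierarchy was detected in part, and of the male-limited noncoding RNAs only roX1 was detected, in cell 2 alone. Sxl, tra, tra2 and fru, 4 of the 10 genes, were detected in every cell. The 3 genes dsx, msl-2 and mle passed the limit in 2 cells, ix and roX1 in 1 cell each, and roX2 in none. Detection in all cells thus covered 40.0% of the 10 genes, beside 31.1% of all genes, and detection in at least 1 cell covered 90.0%, beside 57.7% of all genes. The number detected was 4, 8 and 8 in cells 1, 2 and 3. All 3 genes detected in 2 cells were missing in cell 1, and cell 1 was likewise the missing one for 1259 of the 1760 genes of the whole data set with 2 detections. Without cell 1, 7 of the 10 genes were detected in both remaining cells.

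**Figure D1:**
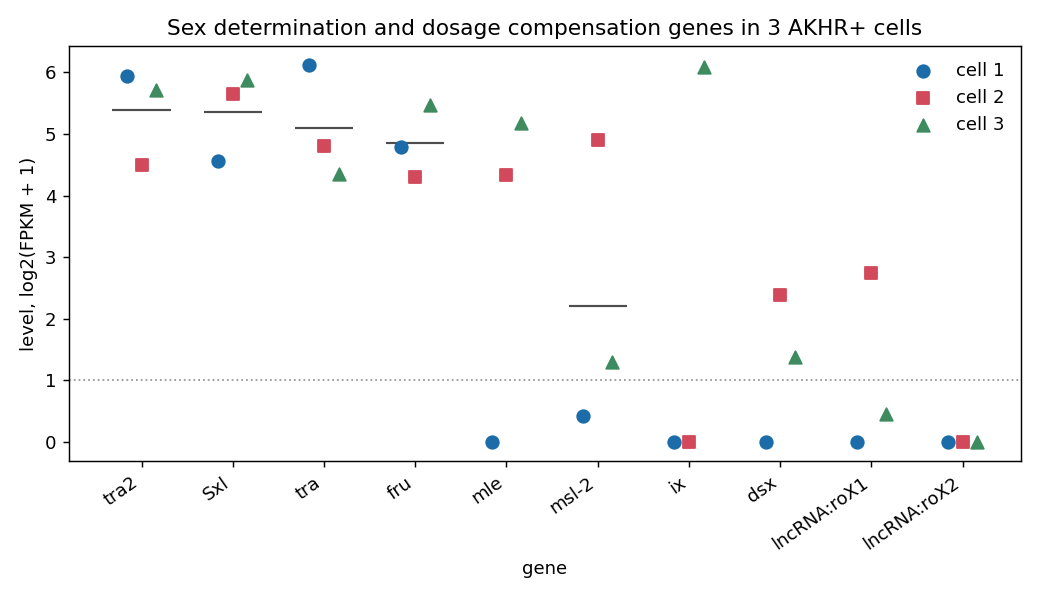
Level of each of the 10 genes in cells 1, 2 and 3, as log2(FPKM + 1) on a linear axis. Each point is 1 cell, the short bars are means over cells (drawn only for genes above 0 in every cell), and the dotted line marks FPKM 1, so that Sxl, tra, tra2 and fru lie above it in every cell and roX2 lies at 0 in every cell.

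Sxl, the female switch, lies on chromosome X from 7074550 to 7098053 (BDGP6). The cells had an FPKM of 22.7, 49.3 and 57.5 in the order 1, 2, 3 (mean 43.2 ± 18.2, SD, n = 3), resting on about 457, 933 and 1140 fragments. It was present in every cell and lowest in cell 1, with 2.53-fold between the highest and the lowest cell. Within the cells it stood at the 77.1, 85.8 and 86.7 percentile of all genes, where genes listed at 0 count and share a rank. The BDGP6 annotation gives Sxl 25 transcripts with 14 protein lengths, from 42 to 722 residues. Male transcripts of Sxl are known to carry an exon with stop codons. The files hold 1 value per gene, so the female and the male form cannot be told apart from them.

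Transformer, the splicing regulator that only females make in working form, is encoded by tra on chromosome 3L from 16590059 to 16591050. The FPKM of tra was 68.7, 26.9 and 19.5 (mean 38.4 ± 26.5, SD, n = 3), so it was highest in cell 1, the cell in which Sxl was lowest. Its 2 annotated transcripts encode 36 and 197 residues, and the transcript that encodes 36 residues is the form that both sexes make. Of its 862 exon bases, 74 overlap the gene l(3)73Ah on the opposite strand, whose FPKM was 3.60, 15.1 and 23.2. Whether the counting used strand is not given in the sources used here, so reads from those shared bases could belong to either gene.

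The partner of Transformer, tra2 (chromosome 2R from 14602004 to 14604337), is an RNA-binding protein used in both sexes. It had an FPKM of 60.7, 21.5 and 51.5 (mean 44.5 ± 20.5, SD, n = 3). Cells 1 and 3 were alike and cell 2 was lower, and the gene lay between the 73.2 and the 86.0 percentile in every cell. By mean log2(FPKM + 1), tra2 (5.38 ± 0.78), Sxl (5.36 ± 0.70), tra (5.09 ± 0.92) and fru (4.86 ± 0.58) headed the 10 genes. These 4 levels differed from each other by less than their SD between cells, and their order changed from cell to cell.

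The end of the hierarchy is a pair of transcription factor genes, which were present at different levels. fru, which in male neurons gives the factors that organise courtship circuits and which also has transcripts common to both sexes, lies on chromosome 3R from 18414273 to 18545586. Its FPKM was 26.7, 18.8 and 43.3 (mean 29.6 ± 12.5, SD, n = 3). dsx, which shapes most other somatic sex differences, lies on the same arm from 7924323 to 7967408 and was listed at 0, 4.23 and 1.60. In cell 2 the value rested on about 110 fragments (95% Poisson interval 90.4 to 133), and in cell 3 on about 43.6 (31.6 to 58.6). fru exceeded dsx in every cell. The difference of log2(FPKM + 1) was 4.79, 1.92 and 4.09 (mean 3.60 ± 1.50, SD, n = 3), for which a two-sided exact permutation test by sign flips gave p = 0.25, the lowest value open to 3 cells (0.417 when adjusted by Benjamini-Hochberg over the 5 differences tested). The size in cell 1 rests on the pseudocount of 1, since dsx was listed at 0 there.

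The annotation gives fru 15 transcripts with 13 protein lengths, and dsx 7 transcripts with 4 protein lengths between 403 and 572 residues. As for Sxl, the single value per gene joins the male, female and common forms. On the opposite strand, 169 of the 9167 exon bases of dsx overlap lds, which was listed at 0 in all cells. The cofactor gene ix (chromosome 2R from 11359437 to 11360163), whose protein acts together with the female form of the dsx protein, was listed at 0 in cells 1 and 2 and at 66.8 in cell 3. That value, from about 317 fragments, was the highest of any of the 10 genes in cell 3. Over all genes, 458 were detected in cell 3 alone, as ix was.

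Both protein genes of the dosage compensation branch differed widely between cells. msl-2, the subunit whose synthesis is blocked in females (chromosome 2L from 3462218 to 3466112), had an FPKM of 0.348, 28.7 and 1.47. It was high in cell 2 and near or below the detection limit in the other two, with 82.7-fold between the highest and the lowest cell. About 676 fragments lay behind the value in cell 2 (95% Poisson interval 626 to 729), against about 8.71 in cell 1 (3.92 to 16.7) and 36.3 in cell 3 (25.4 to 50.2). As an mRNA level it does not show whether the protein was made, since Sxl acts on its translation.

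The helicase gene mle (chromosome 2R from 5974857 to 5980778), whose protein is made in both sexes and has other roles in RNA processing, was listed at 0, 19.1 and 35.3. The difference mle minus msl-2 in log2(FPKM + 1) was -0.43, -0.57 and 3.88 (mean 0.96 ± 2.53, SD, n = 3; two-sided exact permutation p = 1, adjusted 1). The difference was thus smaller than its spread and depended on cell 3, without which its mean was -0.50. Ranges of this size were not rare: among the 6883 genes that any cell detected, 18.3% had a larger log2 range over the cells than msl-2, and 9.25% had a larger one than mle. Against fru, the steadiest of the 4 genes detected in every cell, 80.8% had a larger range.

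roX1 and roX2 are the RNA components of the MSL complex and can stand in for each other there. roX1 lies on chromosome X from 3857230 to 3862697 and roX2 on the same chromosome from 11579065 to 11580432. roX1 was listed at an FPKM of 0 in cell 1, 5.69 in cell 2 and 0.364 in cell 3, and roX2 was listed at 0 in all 3 cells. Only roX1 in cell 2 passed the detection limit. It rested on about 144 fragments (95% Poisson interval 121 to 169), and the value in cell 3 on about 9.62 (4.54 to 17.9). For roX2, whose transcripts are short, 3 fragments would give an FPKM of 0.617, 0.657 and 0.627 at the estimated depth. This floor covers the counting of fragments only, not RNA lost before sequencing, so a listed 0 does not exclude a higher level. Over all genes, 477 were listed at 0 in cell 1 and at FPKM of at least 10 in both other cells.

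Placed among the 51 long noncoding and antisense RNA genes with a value, roX1 was far from the top. In cell 2, 14 of the 51 genes were higher than roX1, and the 21 genes above 0 had a median FPKM of 9.11. In cell 3, 14 genes were higher, and 15 were above 0. The highest, lncRNA:noe, was at 14787 in cell 2. roX1 shares 392 of its 5468 exon bases with the gene ec on the opposite strand, and ec was listed at 0 in all cells. The difference roX1 minus roX2 in log2(FPKM + 1) was 0, 2.74 and 0.45 (mean 1.06 ± 1.47, SD, n = 3; two-sided exact permutation p = 0.5, adjusted 0.625). Since roX2 was listed at 0 in every cell, this difference is the level of roX1 itself. It could not be negative, and the test does not compare the 2 RNAs. The difference did not exceed its spread, and without cell 2 it was 0.22.

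Transcripts that depend on sex were examined beside the roX RNAs. Yp1, Yp2 and Yp3 encode yolk proteins, and these genes, which female fat body transcribes under the control of dsx and ovary makes too, had a very high level in every cell. Yp1 was at an FPKM of 9698, 12571 and 14272, Yp2 at 6124, 5071 and 11112, and Yp3 at 4223, 11713 and 7268. Together they took 4.07%, 5.68% and 6.05% of the summed FPKM. fit, a gene of female head fat cells, was at 423, 358 and 642 (mean 474 ± 149, SD, n = 3). All 4 female-limited genes were thus at or above the 98.2 percentile in every cell. Their known sources are fat body and, for the yolk proteins, ovary, not neurons.

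The male side was low or at 0 except for 1 gene. Obp99b, an odorant-binding protein gene first described under the name tsx as biased to male head fat cells, was at 108, 45.5 and 165, and it was highest in cell 3. takeout (to), another gene biased to male heads, was listed at 0 in cells 1 and 3 and at 10.8 in cell 2. The genes roX1, to and the MSL subunit gene mof (0, 1.43 and 0) were detected in cell 2 alone, a pattern shared by 777 genes in all. All 7 Y-linked genes analysed and all 10 genes of the male reproductive tract were listed at 0 in every cell, as were 39.5% of all genes. The Y-linked genes are known for their use in the testis, not in the brain.

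The mean log2(FPKM + 1) of the 4 female-limited genes exceeded that of the male list (roX1, roX2 and Obp99b) by 9.39, 9.22 and 9.74 in cells 1, 2 and 3 (mean 9.45 ± 0.27, SD, n = 3). The two-sided exact permutation p was 0.25, again the lowest possible, and 0.417 when adjusted. The lists were chosen with earlier results of these data known, and the female-limited genes are known from fat body. The size of the difference thus depends on which genes were listed, and it is no measure of the sex of the flies. Taken between the highest gene of each list, the difference was 6.99 ± 0.94 (SD, n = 3). With roX1 and roX2 alone as the male list, a choice made after the values were seen, it was 11.5. The male-limited RNAs were thus listed at 0 in cell 1, reached 0.364 FPKM in cell 3, and in cell 2 comprised roX1 at the 57.0 percentile without roX2, while the female-limited transcripts were abundant in all cells. The sex of the flies was not given by the labels, and where the roX1 RNA of cell 2 came from was not tested.

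**Figure D2:**
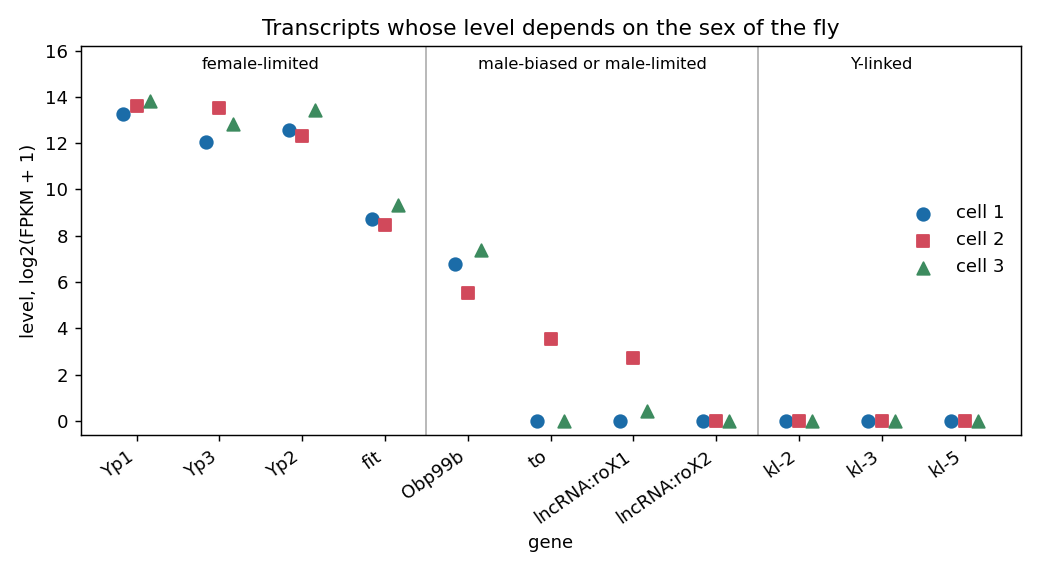
Level of female-limited genes (Yp1, Yp3, Yp2, fit), of male-biased or male-limited genes (Obp99b, to, roX1, roX2) and of the Y-linked genes kl-2, kl-3 and kl-5, as log2(FPKM + 1) on a linear axis, with 1 point per cell. The 4 female-limited genes are high in all cells, to stands above 0 in cell 2 only, roX1 is at 5.69 FPKM in cell 2 and 0.364 in cell 3, and roX2 and the Y-linked genes are at 0.

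Dosage compensation acts on the whole X chromosome, so the levels of X-linked genes were compared with those of the major autosomes. The median log2(FPKM + 1) of detected X-linked genes was 5.33, 4.56 and 4.59, and that of detected autosomal genes was 5.41, 4.61 and 4.82. The X was lower in each cell, by a difference of -0.08, -0.05 and -0.23 (mean -0.12 ± 0.10, SD, n = 3; two-sided exact permutation p = 0.25, adjusted 0.417). The difference was small beside the distance between the quartiles of either group. Over genes at FPKM of at least 10 it was -0.06 ± 0.14 (SD, n = 3) and no longer had the same sign in every cell (exact permutation p = 0.75), and without cell 3 it was -0.07. X-linked genes were detected somewhat more often, at 41.1%, 54.8% and 50.5% of 1879 genes, against 35.7%, 49.7% and 46.4% of 9844 autosomal genes. The X took 20.7%, 22.1% and 23.2% of the summed FPKM, of which the 3 yolk protein genes alone made up 19.7%, 25.7% and 26.0%. With these left out, its share was 17.3%, 17.4% and 18.3%, beside 15.9% of the genes. A level of the X near that of the autosomes is known in both sexes of the fly and does not tell them apart.

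**Figure D3:**
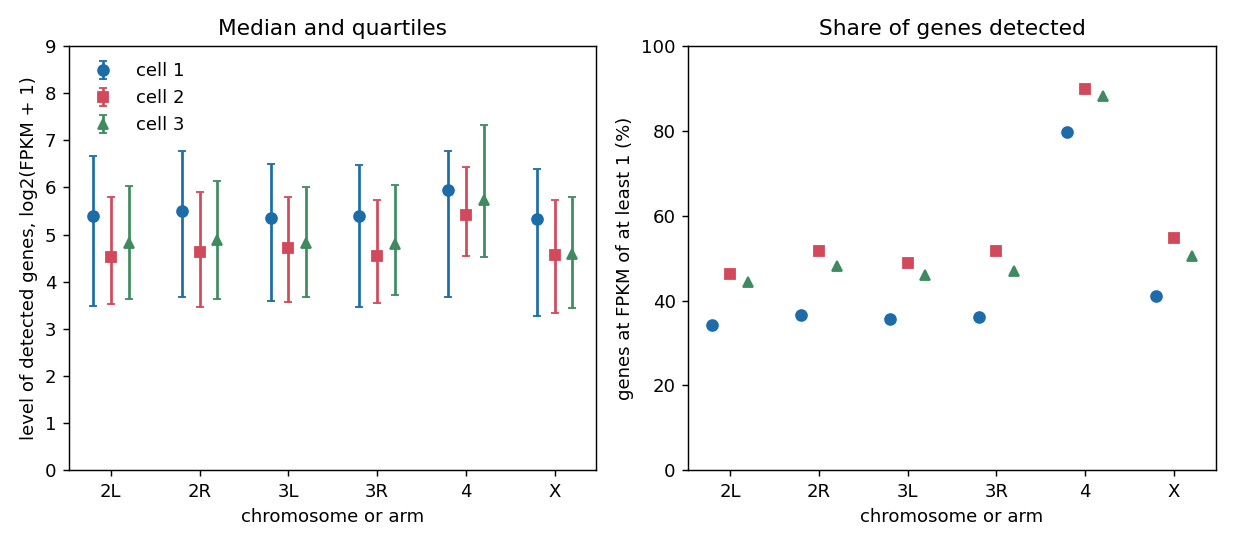
Left, median level of genes detected at FPKM of at least 1 on each chromosome arm in cells 1, 2 and 3, as log2(FPKM + 1), with bars from the lower to the upper quartile. Right, percentage of the genes of each arm that were detected, on an axis from 0 to 100: the X median lies among those of 2L, 2R, 3L and 3R in cell 2 and below them in cells 1 and 3, and the small chromosome 4 has the largest share, 79.7% to 89.8%.

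Of 7 partners of the MSL complex with a value, 4 were detected in every cell (beside 31.1% of all genes), 1 in 2 cells and 2 in 1 cell. Those detected throughout have roles beyond the male X: e(y)2, a subunit of transcription and mRNA export complexes (FPKM 16.3, 44.3 and 26.3), the histone kinase gene JIL-1 (15.3, 11.9 and 19.0), the topoisomerase gene Top2 (2.08, 9.42 and 2.65) and Unr (2.43, 15.6 and 2.76), an RNA-binding protein that works with Sxl on msl-2 mRNA. The subunits that define the complex were not detected in every cell. The scaffold gene msl-1 was listed at 0, 18.2 and 1.48, and, like msl-2, was highest in cell 2. The chromodomain gene msl-3 was at 0.287, 0.811 and 40.9, and so passed the limit in cell 3 alone. The acetyltransferase gene mof was named above. In 0 cells were msl-1, msl-2, msl-3, mle and mof all detected together. In cell 2 only msl-3, at 0.811, missed the limit, and at a limit of 0.1 all of them would be detected there. Of all genes, 36.8%, 50.7% and 47.2% were detected in cells 1, 2 and 3. With such shares few sets of this many genes would be detected whole in a cell, so the count says little about the complex. Clamp, which guides the complex to DNA, was not analysed here.

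Of 15 regulators of Sxl with a value, 7 were detected throughout, 2 in 2 cells and 1 in 1 cell, and 5 were not detected in any. Detection in all cells held for 31.1% of all genes and detection in any cell for 57.7%, so these counts were not far from the background. The X-counting genes sc, sisA and run and their opponent dpn, which act on Sxl in the early embryo, were listed at 0 in every cell. Some other factors of that step were detected in every cell. These were emc at 207, 195 and 280, gro at 49.1, 30.8 and 32.3, da at 40.5, 54.3 and 49.7 and the transcription factor gene Stat92E at 8.24, 8.23 and 19.8. Others of the listed regulators were not, with her at 0, 5.79 and 23.5 and hop at 0, 0.315 and 0.266. Of the splicing factor genes that keep Sxl in its female mode, 3 were detected in every cell: snf, a protein of the U1 and U2 particles, at 138, 94.6 and 139, and fl(2)d, a subunit of the complex that methylates adenosine in mRNA, at 66.5, 65.2 and 90.8, and nito, another subunit of it, at 4.41, 5.83 and 3.77. The other 2 were not: vir, also a subunit of that complex, was listed at 0, 0 and 1.16, and Ythdc1, which reads the methyl mark, at 0.323, 28.7 and 15.5.

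Of 6 genes with a value that were listed as splicing partners of tra and tra2, 5 were detected in all cells, beside 31.1% of all genes. The remaining one, the kinase gene Doa, was detected in 2 cells. Whether each listed gene, ps included, works with tra or tra2 was not tested. ps, which encodes a relative of the mammalian Nova RNA-binding proteins, had the highest level (214, 278 and 236). Next came B52, which encodes an SR protein (117, 74.9 and 74.7). The SR protein gene SF2 (7.41, 70.1 and 13.1) was lower and less even. Srp54k (54.0, 39.2 and 11.9) stood in the list although it is known as a subunit of the signal recognition particle, not as a splicing factor, so without it 4 of 5 genes were detected throughout.

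Of 15 genes with a value that were listed as targets or partners of dsx and fru, 9 were detected throughout, 2 in 2 cells and 1 in 1 cell. Over all genes, 31.1% were detected throughout and 57.7% in any cell. Whether each listed gene, fit included, depends on dsx or fru was not tested. Below Yp1, Yp2, Yp3 and fit, the highest was lola (174, 287 and 272), a transcription factor of neuronal identity that works with the fru protein. The 3 listed at 0 throughout were Abd-B, a Hox gene of the abdomen, dsf, and Fad2, a pheromone desaturase gene of female cuticle cells.

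**Figure D4:**
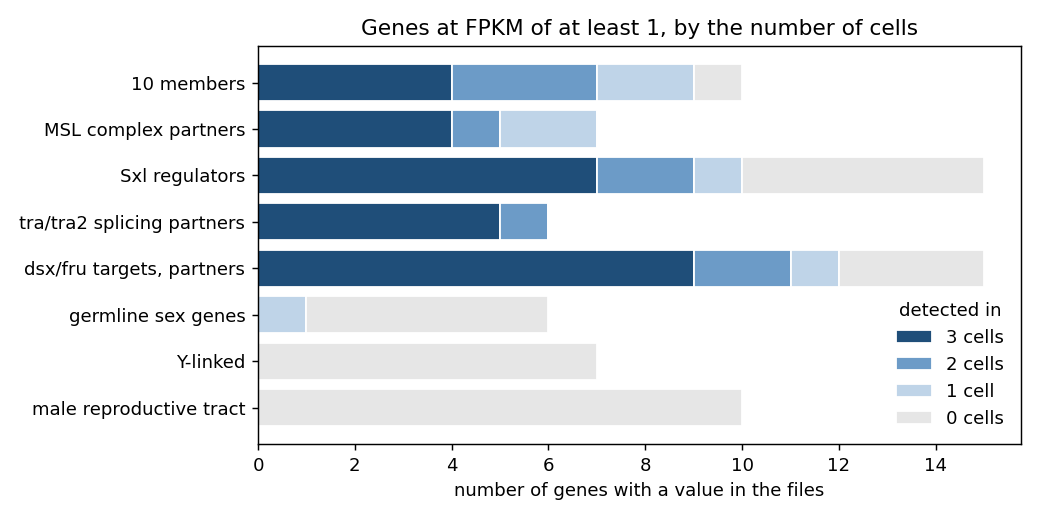
Number of genes with a value in each list, split by the number of cells (3, 2, 1 or 0) in which the gene was detected at FPKM of at least 1. The genes listed as splicing partners of tra and tra2 are detected throughout for 5 of 6, while the Y-linked and male reproductive tract lists are detected in 0 cells.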

How the data were processed

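Flies expressed GFP in AKHR+ neurons, and cDNA of 3 samples was amplified by a SMART-type method. Per the labels and the study's methods, the authors removed low-quality reads, adaptors and primers, aligned to the fly genome (HISAT, in the submitters' processing notes) and deposited FPKM per gene. The genome build, the annotation and any use of strand are not given in the sources used here. PCR copies could not be told from separate molecules, and FPKM gives no depth.

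Each file had 12180 lines with 11922 gene IDs. Lines of a repeated ID (117 IDs) were averaged. Symbols, positions and transcript lengths came from the BDGP6 annotation of Ensembl release 115, which matched 11794 IDs. Obp99b (tsx) and nanos (nos) were matched through synonyms. Genes without a line were not analysed here, 1 listed gene is not reported here, and the planned search for sequence motifs was not run. The value column of cell 3 was headed as another sample, and the number of its label was used.

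Depth was estimated as the step that best placed FPKM times length of genes with 1 transcript on whole multiples. For values of at most 10 fragments (198, 167 and 184 genes), the share closer than 0.1 to a whole multiple was 66.2%, 43.7% and 54.3%, where 20% is the share that chance gives a fixed step. Since the search used these same values, depth and fragments are estimates. The search was tested on simulated data. Fragments of a gene were computed at the mean length of its annotated transcripts. For dsx this was 4170 bases, in a range from 3238 to 6941, so the fragments shift with the transcripts present. Intervals are exact Poisson intervals (95%), floors are 3 fragments, and both cover counting error only, not this choice of length.

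Levels were tested as log2(FPKM + 1), a scale that understates differences of low genes. Differences within a cell were tested by an exact sign-flip permutation test with Benjamini-Hochberg adjustment over 5 differences. Nothing says that the samples came from separate flies, so p-values measure only the spread between these samples. No mean was printed for a gene with a listed 0, outside the tests. The 10 genes were all named, and of the other lists at most 5 detected genes by mean log2 level, plus the members of the female, male and Y-linked lists and the genes listed at 0. Genes named beyond that (msl-1, mof, vir, nito, Ythdc1, Stat92E, her, hop, Doa, to and Pof) were chosen after their values were seen. The genes and lists were chosen with earlier results of these data known. The alternatives comprised fits without each cell, a pseudocount of 0.1, detection at 0.1 or 10, rescaling to a common sum, summed lines and other gene filters. Python 3.11.15, numpy 2.4.6, pandas 2.3.3 and scipy 1.17.1 were used.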

Additional observations from a re-analysis of the deposited data

How the results depend on the processing

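Of 35 alternative values of the 5 differences, 34 kept their sign and 1 reversed. This count overstates stability. The difference roX1 minus roX2 could not turn negative, since roX2 was listed at 0 throughout. The female minus male difference had little room to change sign, since its lists were chosen with earlier results known. Of 52 alternative values of levels and counts, 47 stayed within the SD between cells or within 1.5 times the main count, and 5 moved. Rescaling each cell to a common sum raised the mean level of Sxl to 82.6, of tra to 75.9, of tra2 to 86.7 and of fru to 56.9, a matter of scale. The difference mle minus msl-2 ranged from -0.50 to 1.72 as each replicate was left out, and it reversed without replicate 3. The number of the 10 genes detected in all cells ranged from 4 to 7 as each replicate was left out, and was 7 without replicate 1. The difference roX1 minus roX2 was 2.69 at a pseudocount of 0.1 and ranged from 0.22 to 1.59 with 2 cells. The female minus male difference was 6.99 between the highest gene of each list and 11.1 at a pseudocount of 0.1. The X minus autosome difference ranged from -0.15 to -0.07 with 2 cells and was -0.06 over genes at FPKM of at least 10. No test with 3 cells can go below 0.25, and none with 2 cells below 0.5, so the tests show nothing about stability. No comparison of groups, paired or not, was possible because there was only a single group, and the 5 differences were taken within each cell. For roX2 and the other genes listed at 0, the floors from the estimated depth cover counting only and do not show absence.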

Other observations

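Genes of germline sex were looked up beside the somatic ones. Of 6 with a value, otu (FPKM 2.13 in cell 1 and 0 in the other cells) was the single one detected, ovo reached 0.902 in cell 2, and bam, bgcn, nanos and vas, which act in germ cells, were listed at 0 in every cell, as were 39.5% of all genes.

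Chromosome 4 of the fly has its own chromosome-wide regulator, Pof, and stood apart from the other chromosomes. Of its 59 genes with a value, 79.7%, 89.8% and 88.1% were detected in cells 1, 2 and 3, against 35.7%, 49.7% and 46.4% on the major autosomes. The median log2(FPKM + 1) of its detected genes was 5.95, 5.41 and 5.74, above that of each arm of chromosomes 2 and 3 and of the X in every cell. Pof itself, looked up after these values were seen, had an FPKM of 51.2, 22.7 and 1.11. How the genes of chromosome 4 with a value were selected was not tested.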
